A study of Mus musculus with 2 samples.

Results

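The genes described here are the replication-dependent histone genes of the mouse, which encode the bulk of the chromatin protein made as a cell copies its DNA. Members were chosen by name: they are the autosomal protein-coding genes of GENCODE release M21 whose symbol begins with Hist1h, Hist2h, Hist3h or Hist4h. This gave 67 of 20807 autosomal protein-coding genes, 54 of them in the Hist1 cluster on chromosome 13, 10 in Hist2 on chromosome 3, 2 in Hist3 on chromosome 11 and 1, Hist4h4, on chromosome 6. Each gene was measured over a window from 1 kb before its start to 1 kb past its end, coordinates being those of mouse build GRCm38.

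DNA methylation was measured by reduced representation bisulfite sequencing (RRBS), in which DNA is reduced to a CpG-rich fraction and bisulfite converts unmethylated cytosines. The cells were a female line of mouse embryonic stem cells (mESCs) of strain C57/Bl6, called Xmas, grown for 7 passages by the labels in a modified culture method. The published methods give another passage number, and which one holds was not settled. In this line each X chromosome carries a different fluorescent reporter at Hprt, and cells were separated by FACS into an XX group, with both X chromosomes, and an XO group, which had lost 1. Each group is 1 library of 1 line, so no value below has a replicate error or a test, and differences can be set only against other genes, other strands and other settings. The measured value is the percent of reads methylated at a CpG cytosine, the read depth behind it is unknown, and cytosines of the same stretch are not independent. Of 1756096 autosomal cytosines listed in both libraries, 560 lay in the windows of the histone genes.

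Histones H2A, H2B, H3 and H4 form the protein core around which DNA is wound, and H1 binds the linker DNA where it enters and leaves that core. Their replication-dependent genes lie in clusters, are mostly without introns, are transcribed as the cell replicates its DNA, and give messages that end in a conserved stem-loop in place of a poly(A) tail. Many copies are nearly identical in sequence, so the cluster offers the same coding stretch at several places in the genome.

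The label was checked against the stem-loop. A 16-base match to GGNNCT, 4 bases, AGNNCC was searched on the sense strand, near the annotated gene end and after the stop codon. It was found in 62 of 67 members (92.5%) and in 7 of 1128 other autosomal genes with 1 exon (0.621%). In the members it took 8 forms, and the 3 commonest are shown with the stem in capitals.
in 38 genes: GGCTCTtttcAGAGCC
in 9 genes: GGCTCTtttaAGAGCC
in 8 genes: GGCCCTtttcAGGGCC
All 5 members with no match, Hist2h2be, Hist1h2an, Hist1h2bp, Hist1h2bq and Hist1h2br, encode H2A or H2B. Hist1h2bp, Hist1h2bq and Hist1h2br are annotated with 2 exons, and a stem-loop away from their annotated gene and coding ends was not searched for. The members had a single exon in 62 cases. For the stem cell label only promoter methylation could be examined, since no RNA was measured: over the 5 of 7 stem cell marker promoters with at least 10 cytosines, means ran from 2.15% to 9.97% in XX and from 6.47% to 19.6% in XO.

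The histone genes were lightly methylated in both libraries, and less so in XX. The mean over the 560 cytosines was 13.7% in XX and 17.6% in XO, a difference of -3.90 percentage points, and the medians were 3.70% and 5.56%. The spread among cytosines was far wider than this difference, with an SD of 21.9 points in XX and 25.1 in XO. XX was lower at 247 cytosines, higher at 163 and equal at 150, and 26.3% of cytosines were at 0% in both libraries. At least 10 cytosines were listed for 24 genes, which hold 21 distinct sets of cytosines because neighbouring windows overlap. XX was lower in 20 of these 24 genes (83.3%) and higher in 4. XX was lower in 87.6% of other autosomal protein-coding genes, 76.2% of other single-exon genes and 74.7% of other genes up to 2 kb. The median gene difference was -3.53 points, beside -5.15 in 15292 other autosomal protein-coding genes, -2.46 in 399 other genes with 1 exon and -2.77 in 387 other genes up to 2 kb long.

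Counts of large differences were set against all genes and cytosines. XX was lower by at least 10 points in 5 of 24 genes (20.8%), and this was so in 25.7% of all autosomal protein-coding genes measured the same way. XX was higher by at least 10 points in 1 of 24 genes (4.17%), Hist4h4, beside 0.307% of all genes. That share rests on 1 gene, whose 16 cytosines form 2 stretches on the reverse strand. The 24 members had a median of 24 cytosines and other autosomal protein-coding genes 78, so member means rest on fewer cytosines. Over single cytosines, 75 of 560 (13.4%) were lower in XX by 20 points or more, beside 22.4% of all autosomal cytosines. XX was higher by as much at 40 (7.14%), beside 3.69%. Of those 40, 24 lay nearest to an H4 gene (16.4% of 146 H4 cytosines) and 13 nearest to an H2B gene (9.92% of 131). XX was lower by 20 points or more at 23 of the H4 cytosines (15.8%) and at 21 of the H2B cytosines (16.0%). The 40 cytosines fall into few stretches read together, so they are far fewer independent observations than their number.

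**Figure D1:**
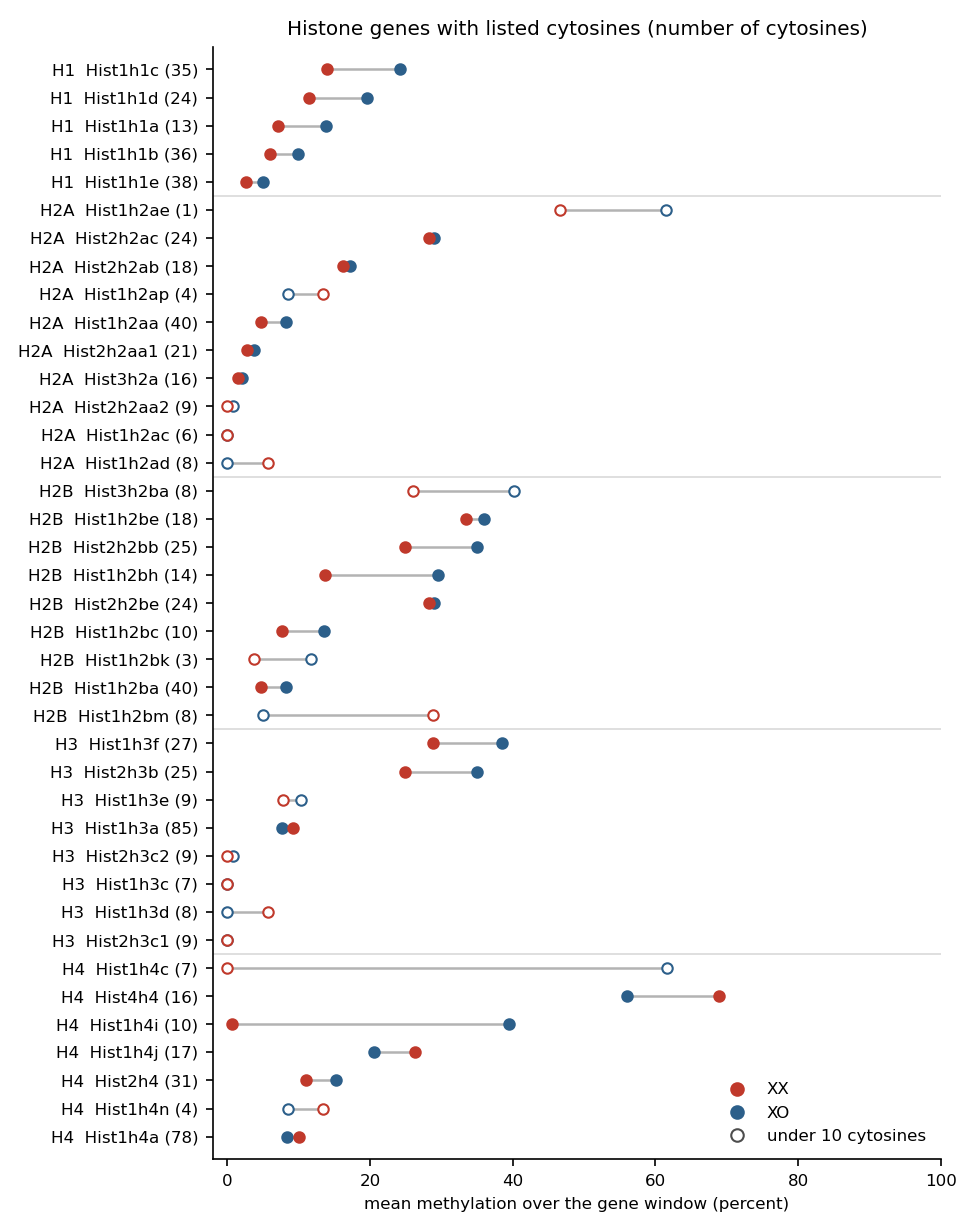
Mean methylation in percent over the window of each of the 39 histone genes with a listed cytosine, in XX (red) and XO (blue), grouped by histone type, with the number of cytosines in brackets and open points for the 15 genes with under 10. XX lies left of XO in most genes, and the widest gaps are in the H4 genes Hist1h4c (0% against 61.6%) and Hist1h4i (0.714% against 39.5%).

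XX was lower in every measured gene of the linker histone H1. This held for all 5 H1 genes with at least 10 cytosines, with differences from -10.2 to -2.40 points (median -6.63). Of other autosomal protein-coding genes, 87.6% were lower in XX. Over 146 cytosines the means were 8.05% in XX and 13.98% in XO. XX was lower by 20 points or more at 19 of the 146 cytosines and higher by as much at 1. Both shares were smaller than those of all autosomal cytosines, of which 22.4% were lower and 3.69% higher by as much. Large falls were thus less common in the H1 genes than among all autosomal cytosines. Hist1h1c stood at 14.0% in XX and 24.2% in XO over 35 cytosines, and XX was lower at 29 of them. In its upstream kilobase 6 cytosines averaged 24.8% in XX and 40.8% in XO, and all 6 were lower in XX. In Hist1h1d (11.5% and 19.6%) the difference lay in 7 antisense cytosines, at 19.3% in XX and 53.5% in XO. They lie 2253 to 2326 bases past the annotated start, at bases 426 to 499 of the coding sequence. The other 4 antisense coding cytosines, at bases 88 to 112, were at 0% in both libraries. The 9 sense coding cytosines, at bases 81 to 398, stood at 3.68% and 0.33%. None of them lies beside those 7, so position and strand cannot be told apart there.

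Hist1h1e was among the least methylated members, at 2.59% in XX and 4.99% in XO over 38 cytosines, of which 17 were equal in both libraries. Most of these cytosines lie in the first bases of its coding sequence (chr13:23622383-23622497, minus strand, GRCm38), shown 5′ to 3′ on the sense strand as an example of a stretch dense in CpGs at low levels, with the CpGs listed on at least 1 strand in capitals.
Hist1h1e: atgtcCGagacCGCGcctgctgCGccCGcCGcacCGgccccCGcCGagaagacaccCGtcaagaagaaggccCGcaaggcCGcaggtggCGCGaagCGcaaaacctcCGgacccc
The 31 cytosines of this stretch ranged from 0% to 11.8% in XX and from 0% to 18.8% in XO. Its strands differed: over the 18 CpGs listed on both, the forward strand averaged 4.75% in XX and 9.67% in XO, and the reverse strand 0.231% and 0.174%. The testis-specific linker gene Hist1h1t had no listed cytosine.

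**Figure D2:**
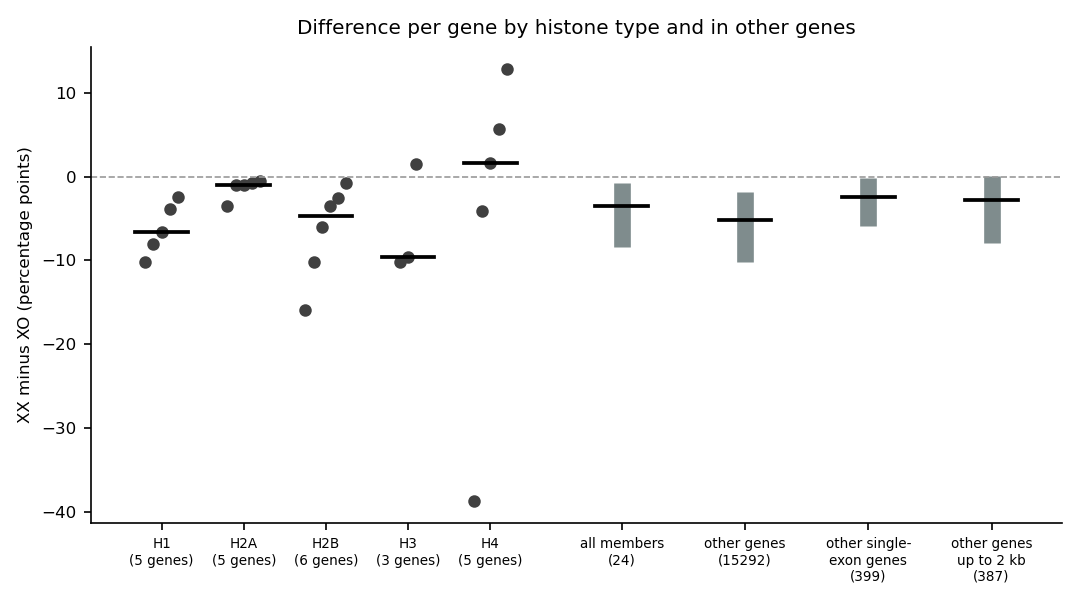
XX minus XO in percentage points for each of the 24 histone genes with at least 10 cytosines, by histone type, beside the quartile range (grey bars) of all members and of other genes; black lines are medians. The H1 genes all lie below 0, the H2A genes close to 0, and the H4 genes run from -38.7 to 12.9.

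In the genes of H2A, which pairs with H2B in the outer part of the core, gene and cytosine means gave differences of unlike size. All 5 with at least 10 cytosines were lower in XX, with differences from -3.53 to -0.555 points (median -0.957), while the 53 cytosines of all H2A genes averaged 5.10% in XX and 9.22% in XO, a difference of -4.12 points. Hist3h2a was the least methylated of the 24 members in XO, at 1.47% in XX and 2.03% in XO over 16 cytosines, and Hist2h2aa1 followed at 2.76% and 3.75%. XX was lower in all 6 H2B genes with at least 10 cytosines, with differences from -15.9 to -0.752 points (median -4.76). The H2B levels were higher, with means of 20.7% in XX and 24.7% in XO over 131 cytosines. The H2A gene Hist2h2ac and the H2B gene Hist2h2be share all 24 cytosines of their windows, and Hist1h2aa and Hist1h2ba all 40. The counts of 5 and 6 genes are therefore not independent, and 87.6% of other autosomal protein-coding genes were lower in XX. Hist2h2bb stood at 24.9% in XX and 35.0% in XO over 25 cytosines, all of which also lie in the window of the H3 gene Hist2h3b, so that both genes have the same value. The levels varied along the gene and between strands: 7 cytosines just upstream of its start averaged 1.59% in XX and 1.19% in XO, and in the coding sequence 8 antisense cytosines at bases 214 to 278 averaged 69% and 86.5%. The last 3 antisense cytosines averaged 0% and 9.88%, and 3 sense cytosines at bases 277 to 298 were at 0% in both libraries. Hist1h2be, at 33.4% and 35.9%, is annotated over 37455 bases, and its 18 cytosines lie 18684 to 29738 bases past the annotated start, outside the coding sequence.

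A pair of H2B genes with nearly the same letters over a listed coding stretch differed in opposite directions on average. Hist1h2bh, with the second largest fall among the 24 genes, stood at 13.6% in XX and 29.5% in XO over 14 cytosines. Hist1h2bm has 8 listed cytosines, under the minimum of 10, and is named because of its values, with 28.8% in XX and 5% in XO. The 8 cytosines of Hist1h2bm and 9 of the 14 of Hist1h2bh lie in the same coding stretch, bases 153 to 234 of the coding sequence, in Hist1h2bh at chr13:23543119-23543200 (minus strand) and in Hist1h2bm at chr13:21722250-21722331 (plus strand). The stretches are shown because the letters differ at 3 of 82 bases while the mean values differ in direction; capitals mark the CpGs listed.
Hist1h2bh: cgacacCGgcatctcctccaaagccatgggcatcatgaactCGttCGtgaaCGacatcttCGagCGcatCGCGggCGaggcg
Hist1h2bm: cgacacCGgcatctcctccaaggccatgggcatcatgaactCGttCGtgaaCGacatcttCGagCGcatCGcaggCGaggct
At the 8 positions listed in both genes, Hist1h2bh averaged 11.9% in XX and 28.1% in XO, and Hist1h2bm 28.8% and 5%. The differences were opposite at 7 of these positions, while at base 159 XX was higher in both genes. In Hist1h2bh the first listed cytosine stood at 28.6% in XX and 6.25% in XO, and the other 8 at 9.52% and 31.3%. The converted sequence centred on the cytosine had another exact copy for 6 of the 9 in Hist1h2bh and 4 of 8 in Hist1h2bm. Base 159 had no copy in either gene, and every other shared position had a copy in either gene or both. The part of read placement in these opposite values was not tested.

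H3 forms the centre of the core with H4. Of 84 cytosines nearest to H3 genes, 58.3% were at 0% in both libraries. Hist1h3f was the H3 gene with the highest XO mean, at 28.9% in XX and 38.5% in XO over 27 cytosines, of which 13 also lie in the window of Hist1h2bh. Hist1h3a, at 9.25% in XX and 7.72% in XO over 85 cytosines, was among the 4 genes higher in XX, and 78 of its cytosines are those of its neighbour Hist1h4a. Within the coding sequence 4 H3 genes have listed cytosines in bases 30 to 105: in Hist1h3a at chr13:23762249-23762324, in Hist1h3c at chr13:23745393-23745468 and in Hist1h3e at chr13:23562261-23562336, all on the minus strand, and in Hist1h3f at chr13:23544514-23544589 on the plus strand. They differ from each other at 1 to 3 of 76 bases and are shown with listed CpGs in capitals. No cytosine is listed in all 4, since the strand listed differs. Hist1h3a and Hist1h3c are listed on the sense strand, so gene and strand cannot be told apart between them and Hist1h3e. Hist1h3e and Hist1h3f are listed on the antisense strand at the same bases from 40 to 93. From base 40 to base 80, Hist1h3e ran from 13.3% to 16.7% in XX and was at 0% in XO. Hist1h3f ran there from 60% to 93.3% in XX and from 92.3% to 100% in XO. At bases 88 and 93 Hist1h3e was at 0% in both libraries.
Hist1h3a: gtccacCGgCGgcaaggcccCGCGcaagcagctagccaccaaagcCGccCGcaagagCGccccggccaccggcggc
Hist1h3c: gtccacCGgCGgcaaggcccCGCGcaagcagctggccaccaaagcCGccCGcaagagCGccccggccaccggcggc
Hist1h3e: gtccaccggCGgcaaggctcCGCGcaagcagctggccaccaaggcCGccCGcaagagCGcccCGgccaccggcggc
Hist1h3f: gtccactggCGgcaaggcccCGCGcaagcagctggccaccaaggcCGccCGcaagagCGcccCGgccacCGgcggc
Hist1h3a and Hist1h3c stood at 0% in both libraries at all 7 cytosines listed, which are on the sense strand. Hist1h3e stood at 10% in XX and 0% in XO over 7 antisense cytosines. In Hist1h3f, 7 antisense cytosines from base 22 to base 80 averaged 81.2% in XX and 92.0% in XO, the next 2, at bases 88 and 93, averaged 23.3% and 0%, and the 5 sense cytosines from base 99 to base 127 were at 0% in both. The division at base 80 was drawn after the values were seen. In both Hist1h3e and Hist1h3f the cytosines at bases 76, 80, 88 and 93 each had 8 exact copies of their converted sequence. Those at bases 40, 51 and 53 had none. A copy existed for 1 of 7 cytosines in Hist1h3a and 2 of 7 in Hist1h3c. The part of read placement in the H3 values was not tested.

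**Figure D3:**
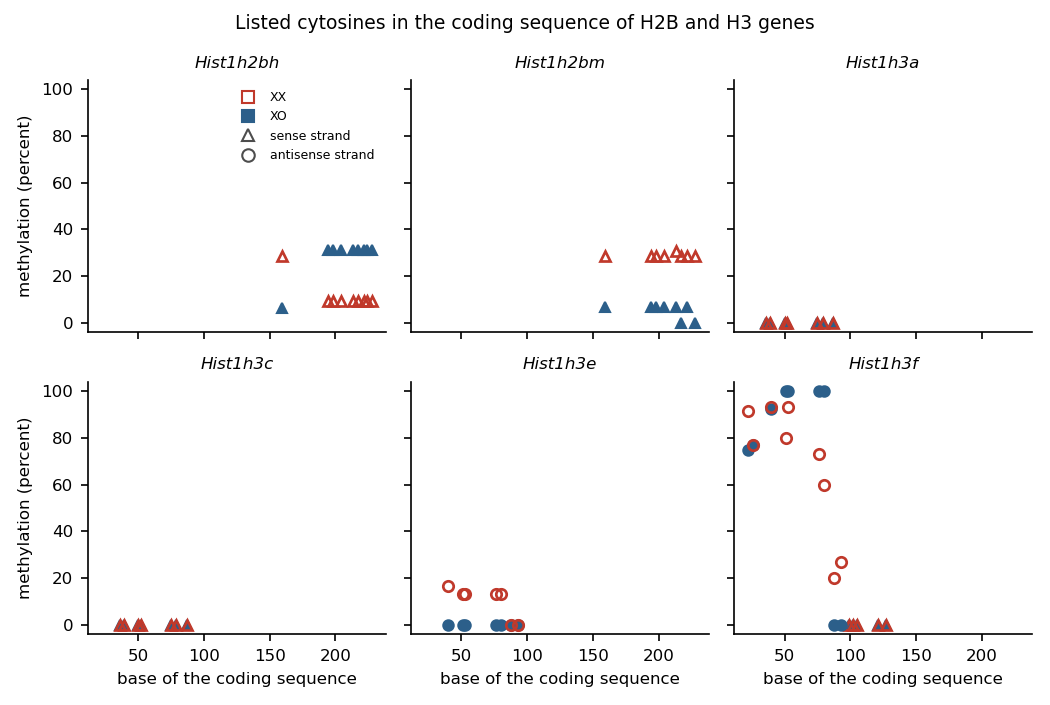
Methylation in percent of each listed cytosine in XX (red, open) and XO (blue, filled) against its base in the coding sequence, for 2 H2B and 4 H3 genes, with triangles for the sense and circles for the antisense strand. Hist1h2bh and Hist1h2bm have the opposite order of the libraries at 7 of 8 shared bases. In Hist1h3f the antisense cytosines up to base 80 lie between 60% and 100% and the sense cytosines, like those of Hist1h3a and Hist1h3c, at 0%.

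The H4 genes held the largest fall and the largest rise among the 24 genes with at least 10 cytosines. Among the 5 with at least 10 cytosines, 2 were lower and 3 higher in XX, with differences from -38.7 to 12.9 points and a median of 1.67. All 13 H4 members have a coding sequence of 309 bases, and the 78 pairs among them are 85.4% to 100% identical (median 93.9%). Hist4h4, alone on chromosome 6, was the most methylated of the 24 genes in both libraries, at 68.9% in XX and 56.1% in XO over 16 cytosines. Its 11 coding cytosines averaged 64.3% in XX and 38.5% in XO, and all were higher in XX, while 5 cytosines 2643 to 2655 bases past the start averaged 79.1% and 94.7% and were all lower. Hist1h4i had the largest fall, with 0.714% in XX and 39.5% in XO over 10 cytosines, all lower in XX. In XX they ran from 0% to 7.14% and in XO from 28.6% to 57.1%. The 10 cytosines form 2 stretches, so they are fewer independent observations than their number. Hist1h4c has 7 listed cytosines, under the minimum, and was named after its values were seen. All 7 were at 0% in XX, and in XO they ran from 53.1% to 71.9% with a mean of 61.6%.

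The same coding stretch, bases 47 to 125, was listed in 4 H4 genes of the Hist1 cluster: in Hist1h4a at chr13:23761033-23761111, in Hist1h4c at chr13:23698325-23698403 and in Hist1h4i at chr13:22041199-22041277, all on the minus strand, and in Hist1h4j at chr13:21735142-21735220 on the plus strand. In Hist4h4 the listed stretch is bases 100 to 174 (chr6:136804206-136804280, minus strand). The stretches are shown 5′ to 3′ on the sense strand with the listed CpGs in capitals, the first 4 because nearly the same letters have different levels and Hist4h4 because its XX values lie above its XO values.
Hist1h4a: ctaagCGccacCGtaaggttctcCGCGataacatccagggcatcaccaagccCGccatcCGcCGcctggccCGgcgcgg
Hist1h4c: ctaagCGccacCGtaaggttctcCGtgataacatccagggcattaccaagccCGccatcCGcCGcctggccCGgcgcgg
Hist1h4i: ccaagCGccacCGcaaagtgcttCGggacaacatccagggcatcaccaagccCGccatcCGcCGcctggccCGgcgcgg
Hist1h4j: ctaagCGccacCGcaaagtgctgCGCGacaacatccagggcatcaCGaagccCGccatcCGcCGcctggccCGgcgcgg
Hist4h4: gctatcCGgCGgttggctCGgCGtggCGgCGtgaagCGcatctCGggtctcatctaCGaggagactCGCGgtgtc
The first 4 stretches differ from each other at 2 to 8 of 79 bases, and 7 antisense cytosines are listed at the same positions in all 4. At those 7 positions the means were 65.5% in XX and 48.2% in XO for Hist1h4a, 0% and 61.6% for Hist1h4c, 0% and 35.4% for Hist1h4i, and 21.8% and 0% for Hist1h4j. Hist1h4a and Hist1h4c, which differ at 2 bases, were further apart in XX than in XO. Hist1h4c and Hist1h4i were lower in XX and the other 3 genes higher on average over the coding cytosines shown. Reads of near-identical copies can be placed at the wrong copy: 50 bases centred on the cytosine had another exact copy in the converted genome for 4 of the 8 coding cytosines of Hist1h4a shown, 1 of 7 in Hist1h4c, 4 of 7 in Hist1h4i, 4 of 9 in Hist1h4j and 0 of 11 in Hist4h4. The part of read placement in these values was not tested. Without the cytosines that had a copy, the difference over all H4 cytosines was -3.42 points, beside -3.20 with them. This cannot decide on read placement: it averages genes of opposite direction and leaves out only the 19 of 146 cytosines with an exact copy.

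**Figure D4:**
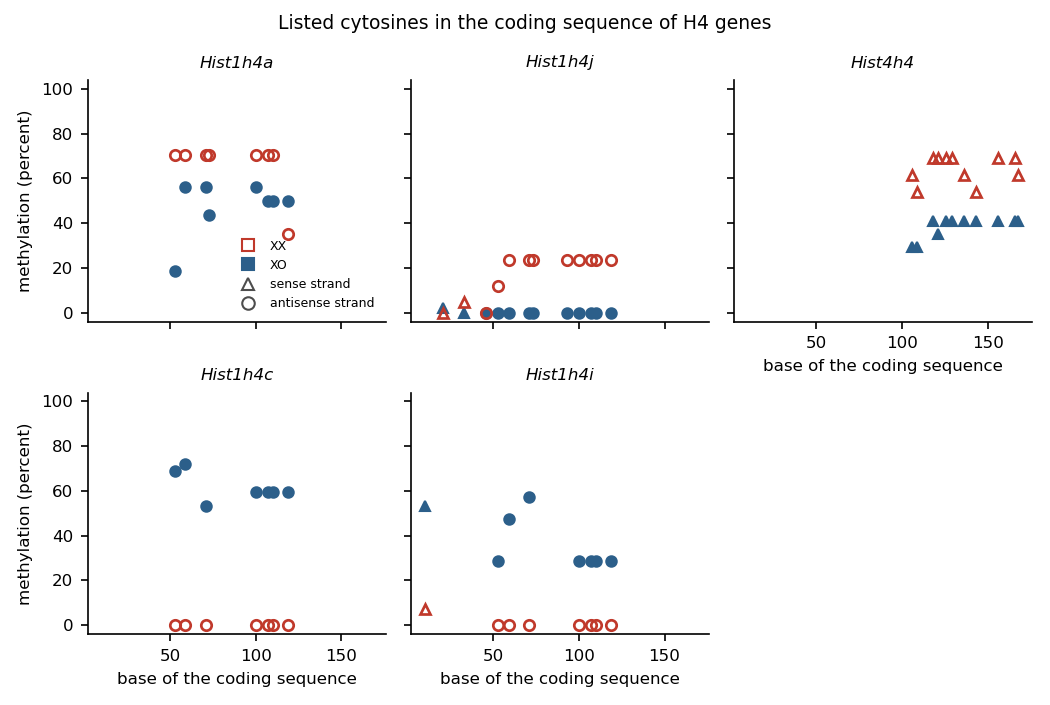
Methylation in percent of each listed coding cytosine in XX (red, open) and XO (blue, filled) against its base in the coding sequence, for 5 H4 genes, with triangles for the sense and circles for the antisense strand. In Hist1h4a, Hist1h4j and Hist4h4 the XX values lie mostly above the XO values, and in Hist1h4c and Hist1h4i they lie at or near 0% below XO values of 28.6% to 71.9%.

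The H4 difference as a whole was sensitive to Hist1h4c and Hist1h4i. These 2 genes were left out because of their large falls, so the direction of the shift was fixed by that choice. The H4 genes higher in XX were not left out of the H4 difference in turn. Over all 146 H4 cytosines the means were 18.7% in XX and 21.9% in XO. The difference was -0.261 points without Hist1h4c, -0.590 without Hist1h4i and 2.72 without both. Hist1h4j was higher in XX over its 17 cytosines, at 26.3% against 20.6%, but not along its whole length: 4 cytosines at -265 to -203 from the start averaged 59.6% in XX and 86.5% in XO, and 10 antisense coding cytosines 20% and 0%. In Hist1h4a the contrast was between parts. Its 53 cytosines in the upstream part averaged 4.73% in XX and 4.595% in XO, and its 8 coding cytosines 66.2% and 47.7%.

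By cluster, the levels were moderate in Hist1, Hist2 and Hist3, and Hist4 is Hist4h4 alone. In Hist1, 401 cytosines averaged 11.3% in XX and 15.7% in XO, and XX was lower in 12 of 15 genes with at least 10 cytosines, with a median of -3.87. In Hist2, 119 cytosines averaged 15.2% and 19.5%, and all 7 genes with at least 10 cytosines were lower, with a median of -0.990. Among these 7, Hist2h2ac has the same cytosines as Hist2h2be, and Hist2h3b the same as Hist2h2bb. Of other autosomal protein-coding genes, 87.6% were lower in XX. In Hist3, 24 cytosines averaged 9.63% and 14.7%. The H2B gene Hist3h2ba, named after its values were seen, had 4 coding cytosines at 0% in XX and at 22.5% on average in XO. The testis histone genes Hist1h2aa and Hist1h2ba, known for expression in male germ cells, face each other at the end of Hist1 and share all 40 cytosines of their windows, at 4.74% in XX and 8.27% in XO. The coding sequence of Hist1h2aa stood at 3.71% and 14.1% over 9 cytosines, all lower in XX, and that of Hist1h2ba at 5.04% and 6.57% over 31. Without these genes the difference over the members was -3.93 points.

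In the 250 bases before the gene start 89 cytosines of 15 genes averaged 7.37% in XX and 11.8% in XO, and 42.7% of them were at 0% in both. Hist1h4a gave 47 of the 89, and without it, a setting added after seeing the data, the other 42 averaged 9.65% in XX and 19.2% in XO. In the first 250 bases of the gene 249 cytosines averaged 12.05% and 14.5% (10.3% and 13.4% without Hist1h4a), and in the next 250 bases 61 cytosines averaged 23.0% and 26.8%. By part, the difference was -3.63 points upstream, -3.94 in the gene and -4.52 downstream. Neighbouring histone genes often face each other and share a promoter: 13 pairs had starts within 1 kb, 12 of them an H2A with an H2B gene, at a median distance of 268 bases. Only 2 of the 13 shared promoters had a listed cytosine between the starts. Between Hist2h2ac and Hist2h2be it was 1 cytosine at 5% in both libraries. Between Hist1h2bh and Hist1h3f it was 2 cytosines, averaging 20.6% in XX and 42.9% in XO.

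**Figure D5:**
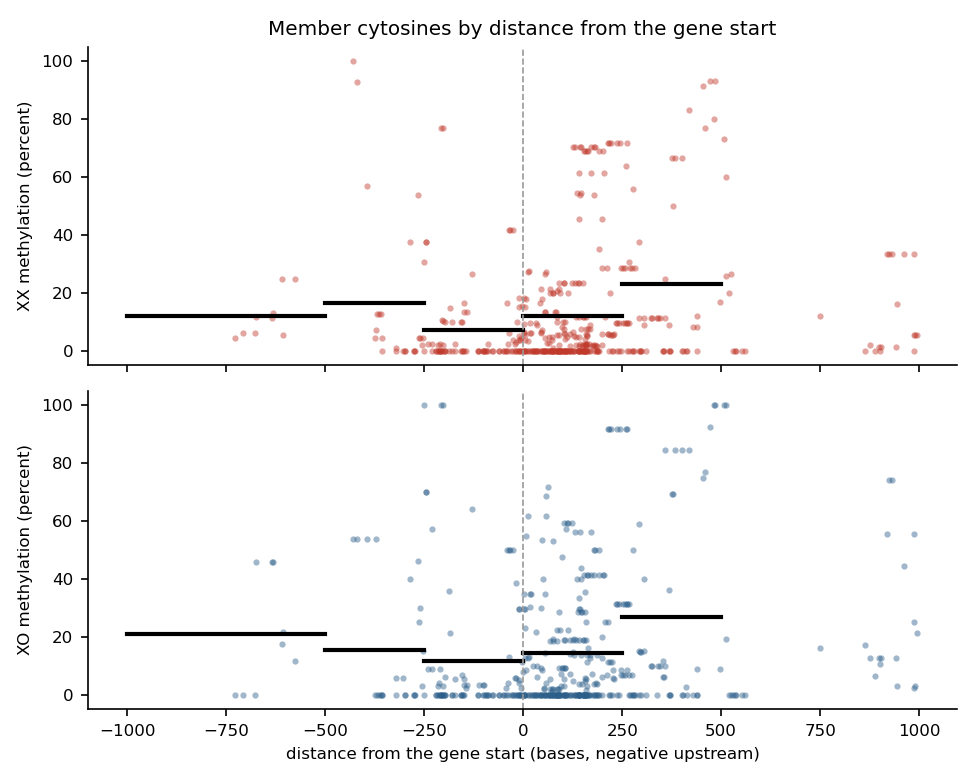
Methylation in percent of 461 member cytosines within 1000 bases of the start of the nearest histone gene, upstream or within the gene, in XX (upper panel) and XO (lower panel). Black lines are means over bins, in the 250 bases before the start 7.37% in XX and 11.8% in XO, where 47 of 89 cytosines are of Hist1h4a.

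DNA between the genes was little covered. When genes with gaps under 100 kb were joined into blocks, 16 cytosines lay between the genes and outside their windows. They were more methylated than the genes, at 39.5% in XX and 35.8% in XO, a difference of 3.75 points in the other direction from the genes. This rested on few sites: 2 cytosines between Hist1h4m and Hist1h4n stood at 60.0% and 93.3% in XX and at 9.09% and 45.5% in XO, 7 of the 16 were lower in XX and 9 higher, and the difference of the medians was -1.21. Over the whole span from the first to the last Hist1 gene, an alternative added after seeing the data, 842 cytosines outside the windows averaged 21.2% in XX and 26.0% in XO, a difference of -4.79 points beside -4.39 in the Hist1 windows. Within that span the 363 cytosines in no annotated gene averaged 25.9% and 33.0%, and the 479 in other genes 17.6% and 20.6%. The Hist1 windows thus had lower means than the DNA between the first and the last Hist1 gene, and DNA around the other clusters was not compared.

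The spread within a library can be read from CpGs listed on both strands, which were 118 in 17 genes. Over both strands they averaged 4.08% in XX and 6.07% in XO, below the 13.7% and 17.6% of all 560 member cytosines. On both strands and in both libraries, 16 of them were at 0%. The strands differed by a median of 2.55 points in XX and 3.82 in XO, a spread taken at these low levels. In 15 of the 118 CpGs, in 10 genes, the strands differed by at least 20 points in 1 library or both. The widest was in Hist2h2be, where the forward strand stood at 25% in XX and 84.6% in XO and the reverse strand at 11.5% and 10%. In Hist2h2bb a CpG stood at 0% in both libraries on the forward strand and at 56.0% and 50% on the reverse. The difference XX minus XO had the same sign on both strands at 23 CpGs and opposite signs at 26, and its correlation between strands was -0.12 over these 118 CpGs, which share libraries and stretches. Averaged over these CpGs, it was -1.83 points on the forward and -2.15 on the reverse strand. Neighbouring cytosines on the same strand were by contrast often identical: of 465 such pairs, 42.8% had the same value in XX and the same value in XO. Counted by stretch, XX was lower in 38 of the 71 stretches with at least 3 cytosines, higher in 26 and equal in 7, and the median stretch difference was -0.855 points.

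Many members could not be measured. No cytosine was listed for 28 of 67 genes, all in Hist1: the H1 gene Hist1h1t, the H2A genes Hist1h2ai, Hist1h2ak, Hist1h2an, Hist1h2ao, Hist1h2ah, Hist1h2ag, Hist1h2af and Hist1h2ab, the H2B genes Hist1h2bl, Hist1h2bn, Hist1h2bp, Hist1h2bq, Hist1h2br, Hist1h2bj, Hist1h2bg, Hist1h2bf and Hist1h2bb, the H3 genes Hist1h3h, Hist1h3i, Hist1h3g and Hist1h3b, and the H4 genes Hist1h4k, Hist1h4m, Hist1h4h, Hist1h4f, Hist1h4d and Hist1h4b. Another 15 genes had 1 to 9 cytosines, with XX lower in 7, higher in 5 and equal in 3. Over all members 5.27% of the 10627 CpG cytosines of the reference were listed. Another exact copy of the converted 50 bases existed for 12.3% of the listed cytosines and 49.4% of those not listed. The 28 unlisted genes had a median of 8 CCGG sites and a copy at a median of 66.3% of their cytosines, and the 39 listed genes 10 sites and 41.9%. Without the listed cytosines that had a copy, the difference over the members was -4.15 points.

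The histone genes that do not depend on replication were described in the same window. Of 14 such genes, 12 had at least 10 cytosines, with XX lower in 9 and higher in 3. Their median difference was -3.38 points, beside -5.15 in other genes, of which 87.6% were lower in XX. The largest differences were in H1fnt, a testis linker histone, at 47.8% in XX and 68.1% in XO, in H2afj, at 5.88% and 14.4%, and in H2afy2, a macroH2A gene, at 10.5% and 18.5%. Promoters of genes that serve the supply of histones and their messages were measured 1 kb either side of the start. XX was lower in 13 of 19 such promoters and higher in 6, with a median of -1.25 points beside -1.15 in all 12046 promoters. The share of all promoters lower in XX was not taken, so the count of 13 has none to be set against. The largest differences were in Casp8ap2, which encodes a protein of the histone locus body, at 8.09% in XX and 33.0% in XO, in Slbp, whose protein binds the stem-loop, at 27.2% and 50.5%, and in Eri1, an exonuclease that acts on it, at 3.73% and 11.9%.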

How the data were processed

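RRBS of 1 XX and 1 XO library was available. Per the labels, libraries were made with the NuGEN Ovation Methylseq kit, and the submitters' processing notes name bcl2fastq, Bismark and the build mm10, whose chromosomes are those of GRCm38. Versions, settings and a coverage minimum are not given in the sources used here. The authors deposited 1 table with the percent of reads methylated at each CpG cytosine in each library, with 0 further sample columns and no read counts, so the depth is unknown and no interval that needs it was computed.

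Cytosines were assigned to GENCODE M21 genes with Python 3.11.15, numpy 2.4.6, pandas 2.3.3 and numba 0.67.0, and drawn with matplotlib 3.10.9. Means were taken over distinct cytosines, and gene values needed at least 10. A cytosine was given a strand from the reference, and a copy was another exact match of the 50 bases centred on it after conversion of C to T on either strand. Stretches are cytosines of 1 strand with gaps up to 75 bases. The search for copies and the summaries were tested on simulated data. No test was possible with 1 library per karyotype.

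By rule the text names, among genes with at least 10 cytosines, the 5 highest and 5 lowest in XO, the 5 largest falls and rises (only 4 genes were higher), the testis genes, genes of the highest and lowest shared promoters, genes with no cytosine, and the 3 largest differences of each list of other genes. Hist1h4c, Hist1h2bm, Hist3h2ba, Hist1h1d, Hist1h3c, Hist1h3e and the wide strand differences were named after their values were seen. Members, lists and alternatives were chosen with earlier results of these data known. The alternatives covered the window, the summary, copies, repeats, strands, thresholds and leaving out genes.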

Additional observations from a re-analysis of the deposited data

How the results depend on the processing

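Of 40 alternative values, 21 kept the direction and the size, 15 moved and 4 reversed. The difference over the members was negative in every alternative run. It was -1.85 points as a difference of medians, -1.99 over CpGs listed on both strands and -2.52 without Hist1h4c and Hist1h4i, and leaving out 1 gene at a time gave -4.88 (without Hist1h3a) to -3.17 (without Hist1h4c). The median gene difference was -1.70 with at least 3 cytosines per gene. XX was lower in 9 genes at a threshold of 5 points and in 1 at 20 points, and higher in 2 and 0. Single cytosines lower in XX numbered 137 at 10 points and 39 at 30 points, and higher ones 78 and 6. Shares over all autosomal genes and cytosines were taken only at the main thresholds, 10 points for genes and 20 points for cytosines. The counts at other thresholds thus have no share to be set against. The testis histone genes differed by -2.26 points on the forward strand alone. The H4 difference was -0.261 without Hist1h4c, -0.590 without Hist1h4i and reversed to 2.72 without both. The difference between the genes reversed to -1.21 as medians, -3.50 with windows of 2 kb left out and -4.79 over the whole Hist1 span; the first of these uses the same 16 cytosines, the second 13. No paired analysis was possible because each karyotype has 1 library. The unknown depth limits every single cytosine: a value of 0% can rest on few reads.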

Other observations

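The coding stretches of H4, H2B and H3 have nearly the same letters at several places in the genome and different values there. Hist1h4a and Hist1h4c differ at 2 of 79 bases and stood at 65.5% and 0% in XX at 7 shared positions, and at 48.2% and 61.6% in XO. Hist1h2bh and Hist1h2bm differ at 3 of 82 bases and had mean differences of -16.2 and 23.8 points over 8 shared positions, opposite at 7 of them. The part of read placement was not tested.

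The other genes between the first and the last Hist1 gene did not all follow one direction. Zfp184, a zinc finger gene, stood at 29.5% in XX and 19.7% in XO over 25 cytosines, and Slc17a2, a phosphate transporter gene, at 32.7% and 52.6% over 12. Both were picked after their values were seen.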
